A study of Mus musculus with 8 samples.

Results

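The genes of the cytosolic ribosome were followed through RNA-seq counts of CD11b+Gr-1hi and CD11b+Gr-1lo myeloid cells from the spleen (SP) and bone marrow (BM) of sanroque mice. Members were the rows of the count table whose symbol is Rpl or Rps followed by a number with at most a closing a or x, together with Rplp0, Rplp1, Rplp2 and Rpsa. The rule found 76 of the 54188 genes, 46 of the large subunit and 30 of the small subunit, and symbols of pseudogenes were left out by it. All 76 passed the filter on low counts, which left 17650 genes for the tests. The symbol rule misses some proteins of the cytosolic ribosome (among them Rps3a1 and Fau), which are given as related genes.

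Every mouse behind these 8 libraries was Roquin san/san on a C57BL/6 background, labelled female and 20 weeks old, so that no group here differs in genotype or age. Such mice carry a mutant Roquin, an RNA-binding protein, and develop a lupus-like disease. The 4 groups of 2 libraries were SP Gr-1hi (libraries 5 and 6), SP Gr-1lo (7 and 8), BM Gr-1hi (9 and 10) and BM Gr-1lo (11 and 12), with the numbers taken from the deposited titles. The labels call the Gr-1hi cells G-MDSC and the Gr-1lo cells M-MDSC (granulocytic and monocytic myeloid-derived suppressor cells). Cells were obtained by FACS, the 2 libraries of a group are stated to be biological replicates, and the BM cells are described as autologous to those of SP. Which libraries share a mouse, and whether mice were pooled, is not stated, and the Xist and Ddx3y counts below bear on both.

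Each ribosome joins a small subunit, which reads the mRNA, to a large subunit, which forms the peptide bond. The protein genes of both subunits are transcribed in nearly every cell and at high levels in cells that grow and divide. Their mRNAs typically begin with a run of pyrimidines, the terminal oligopyrimidine (TOP) motif, through which mTOR and the RNA-binding protein LARP1 control their translation and stability. During granulocyte maturation, synthesis of new ribosomes declines as cells leave the cell cycle.

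The starts of 5 members that the results turn on are shown first. Rps18, Rpl12 and Rpl36a were among the members with the largest differences between Gr-1hi and Gr-1lo cells, and Rps9 and Rps27 had the smallest. Each line gives 60 bases before and 20 bases from the start annotated by RefSeq (GRCm38.p6), read 5′ to 3′ on the coding strand. Capitals mark the longest run of C or T that opens with C and begins within 20 bases of that start. The windows lie at chr17:33955646-33955725 on the minus strand (Rps18), chr2:32961652-32961731 on the plus strand (Rpl12), chrX:134585594-134585673 on the plus strand (Rpl36a), chr7:3703981-3704060 on the plus strand (Rps9) and chr3:90213629-90213708 on the minus strand (Rps27).
Rps18: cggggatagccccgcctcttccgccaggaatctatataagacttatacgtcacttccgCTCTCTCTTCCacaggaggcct
Rpl12: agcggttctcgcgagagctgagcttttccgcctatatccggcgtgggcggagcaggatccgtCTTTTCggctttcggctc
Rpl36a: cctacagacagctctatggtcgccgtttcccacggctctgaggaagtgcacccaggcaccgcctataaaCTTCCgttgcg
Rps9: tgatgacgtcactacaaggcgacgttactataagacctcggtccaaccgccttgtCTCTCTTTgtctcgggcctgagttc
Rps27: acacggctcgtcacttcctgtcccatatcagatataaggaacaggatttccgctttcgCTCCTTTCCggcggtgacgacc

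RefSeq promoter windows (250 bases before to 50 from the start) were matched by symbol to 56 members. Some genes have several windows, and a gene counted as a match if any of its windows held one. A start at C followed by 4 of C or T, the form of a TOP motif, was annotated for 13 of the 56 (23.2%), against 3.01% of 27025 genes. A run of at least 8 pyrimidines near the start was present in 51.8% of members and 15.7% of all genes. The letters CCGGAA, on either strand, stood in 55.4% of members and 16.7% of all genes, and CTTTCC, on either strand, in 51.8% and 29.3%. The reverse of the former (TTCCGG) can overlap the latter. TATAAA on the coding strand, 40 to 15 bases before the start, was in 0 of the 56 members and in 2.41% of all genes. These are matches of letters and not mapped sites. Medians of the log2 FC (the fold change on a log2 scale, from the fit to all genes) were taken by annotated start. For Gr-1hi against Gr-1lo in BM the median was -2.16 for the 13 members with an annotated TOP start and -2.04 for the other 43. In SP it was -1.45 and -1.43. The split rests on the exact base annotated as the start. Rpl27a, among the 43, had a run of 20 pyrimidines that began at base -4. These medians therefore do not compare TOP mRNAs with others.

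Depth ranged from 33453580 to 68316154 counts per library, and the lowest count of any member in any library was 221 (Rpl36a in library 9), so that counting error was small. The label female was at odds with every library but library 5. Xist was counted 12032 times in library 5 and 9898 times in library 7, and at most 5 times in the other 6. Ddx3y was at 0 in library 5 and at 1595 to 4902 counts in the other 7. Library 5 thus differed from library 6 of its own group and from every BM library, and library 7 held counts of both genes. Calls without libraries 5 and 7 therefore stand beside the results. Single markers of each subset label were met. Ly6g, a granulocyte marker, was at 330.0 to 801 CPM (counts scaled to library size with TMM factors) in the Gr-1hi libraries. In the Gr-1lo libraries it was at most 8.23 CPM. Ccr2, a monocyte receptor, was at 1451 to 1826 CPM in Gr-1lo and at most 38.6 CPM in Gr-1hi. The Gr-1lo libraries also held 5 primary granule genes of immature granulocytes, which summed to 1200 to 3289 CPM, against at most 43.3 CPM in Gr-1hi.

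The members as a whole took a far smaller share of the transcriptome in Gr-1hi than in Gr-1lo cells. Their share of all counts was 3.76% and 3.89% in the BM Gr-1lo libraries, 3.50% and 3.32% in SP Gr-1lo, 0.536% and 0.597% in BM Gr-1hi, and 0.930% and 0.829% in SP Gr-1hi. The 4 groups did not overlap. The mean share was 3.83% ± 0.0907 (SD, n = 2) in BM Gr-1lo and 0.567% ± 0.0427 in BM Gr-1hi, a ratio of 6.75. In SP it was 3.41% ± 0.130 and 0.880% ± 0.0715, a ratio of 3.88. The share in SP Gr-1hi was 1.55 times that in BM Gr-1hi, and the share in SP Gr-1lo was 0.891 times that in BM Gr-1lo. In bulk samples, fewer cells that express a gene and less of its RNA per cell cannot be told apart.

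Of the counts in a library, the 10 most abundant genes held 9.14% to 14.4% in Gr-1hi and 5.30% to 5.91% in Gr-1lo cells. With these genes out of the denominator, the ratios of Gr-1lo to Gr-1hi were 6.16 in BM and 3.69 in SP. As shares of TPM, which divides counts by exon length, they were 7.17 and 3.80. Rows of ribosomal protein pseudogenes (308 rows with a member symbol and -ps, for 61 members) held 9.11 to 12.6 counts for every 100 on the members. With those rows added the ratios were 6.76 and 3.96. How reads that fit both a member and a pseudogene were counted is not given in the sources used here, so that values of members with near-identical copies are uncertain by such reads.

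**Figure D1:**
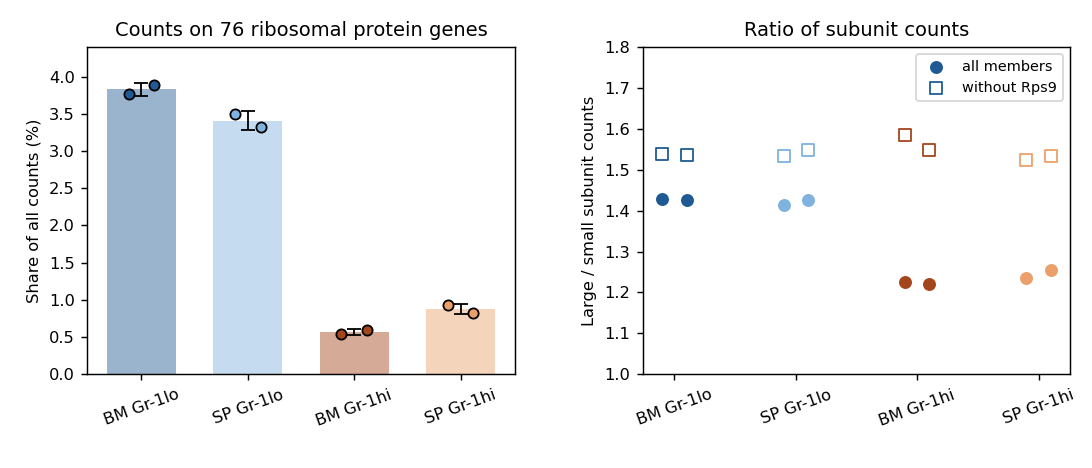
Left, share of all counts on the 76 members (%) by group, with bars for the mean, whiskers for the SD and points for the 2 libraries. Right, ratio of large to small subunit counts in each library, for all members (filled circles) and without Rps9 (open squares). The share was 3.32% to 3.89% in Gr-1lo and 0.536% to 0.930% in Gr-1hi libraries. Without Rps9 the mean subunit ratio of Gr-1hi was above that of Gr-1lo in BM (1.57 and 1.54). In SP it stayed slightly below (1.53 and 1.54).

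In BM, nearly every member was lower in Gr-1hi than in Gr-1lo cells. Of 76 members, 75 fell by edgeR's quasi-likelihood test at a Benjamini-Hochberg adjusted p of at most 0.05 and 0 rose, and for each of the 76 both Gr-1hi libraries lay below both Gr-1lo libraries, as they did for 48.2% of all genes. Among all genes tested, 41.2% were called lower and 34.5% higher. The median log2 FC of the members was -2.05 (quartiles -2.63 and -1.61), and that of all genes was -0.17 (quartiles -1.71 and 1.08). An adjusted p below 0.01 with an FC above 8, the threshold of the study for this contrast, was passed by 9 members, all lower, against 10.1% of all genes. All 46 large subunit members fell, with a median of -1.99, and 29 of the 30 small subunit members fell, with a median of -2.10. The 75 calls held in each of 15 alternative settings, the one without libraries 5 and 7 included (median log2 FC -2.09). Libraries 5 and 7 are from SP, however, and hold no counts of this contrast. Settings that leave out only SP libraries bear on it just through the fit and scaling shared by all libraries.

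Members with the largest falls sit at different sites of the ribosome. Rpl10a, which forms the L1 stalk beside the site where spent tRNA leaves, was at 332 and 345 CPM in BM Gr-1lo and at 19.0 and 29.2 CPM in BM Gr-1hi. The groups were far apart, and the log2 FC was -3.81 ± 0.21 (SE) with an adjusted p of 9.0e-07. Rpl12, a protein at the base of the stalk that recruits translation factors, was at 316 and 357 CPM in BM Gr-1lo and at 24.1 and 28.6 CPM in BM Gr-1hi (log2 FC -3.68 ± 0.14). Rpl36a, encoded on the X chromosome, was at 118 and 131 CPM against 8.26 and 11.6 CPM (log2 FC -3.65 ± 0.19). Rpl3, which reaches towards the peptidyl transferase centre, was at 669.9 and 715 CPM against 57.8 and 66.8 CPM (log2 FC -3.47 ± 0.11). In each of these, Gr-1hi cells of BM kept between 7.11% and 8.99% of the Gr-1lo level. The others past the threshold of the study were Rpl14, Rps18, Rps2, Rpsa and Rps20, at log2 FCs of -3.31 to -3.11.

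Rps9, which lines the entry of the mRNA channel, stood apart at the other end. It was at 856 and 922 CPM in BM Gr-1lo, 742 and 783 in BM Gr-1hi, 891 and 855 in SP Gr-1lo, and 908 and 813 in SP Gr-1hi. The BM groups did not overlap, the SP groups did, and neither difference was called (log2 FC -0.22 ± 0.09 with an adjusted p of 0.058 in BM, and -0.02 ± 0.09 with an adjusted p of 0.85 in SP). In BM it was called lower under total-count scaling (-1.03, adjusted p 2.2e-05) and without a filter (-0.33, adjusted p 0.0050). Without libraries 5 and 7 its log2 FC in BM was -0.26, a setting that keeps all BM counts and changes just the shared fit and scaling. In SP it was called lower under total-count scaling (-0.62, adjusted p 6.1e-04), while its sign was positive under RLE and upper-quartile scaling and with DESeq2. Since the others fell, Rps9 made up 2.97% of the counts on members in BM Gr-1lo and 9.82% in BM Gr-1hi, and 3.27% and 8.23% in the same subsets of SP. The ratio of large to small subunit counts was 1.41 to 1.43 in Gr-1lo libraries and 1.22 to 1.25 in Gr-1hi libraries. Without Rps9, a choice made after its values were seen, the group means were 1.54 in BM Gr-1lo, 1.54 in SP Gr-1lo, 1.57 in BM Gr-1hi and 1.53 in SP Gr-1hi.

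The members next to Rps9 in that order also kept much of their level. Rps27, a zinc finger protein of the small subunit, was at 165 and 173 CPM in BM Gr-1lo and at 113 and 117 CPM in BM Gr-1hi, so that 68.1% of the level was kept (log2 FC -0.55 ± 0.08, adjusted p 2.1e-04). In SP it was at 181 and 171 CPM in Gr-1lo and at 165 and 163 CPM in Gr-1hi, which was no call (log2 FC -0.10 ± 0.08, adjusted p 0.28), although it was called lower under total-count scaling (-0.70, adjusted p 6.4e-05) and its sign was positive under RLE scaling and with DESeq2. Rps27a, made as a fusion to ubiquitin, kept 62.6% in BM and 64.4% in SP, and Rpl37 kept 59.7% and 63.4%. Both fell in both tissues, with log2 FCs of -0.64 to -0.74. Rpl9 was the next, at 54.9% and 61.5%. All of these percentages rest on TMM scaling. Total-count scaling moved the median log2 FC of all genes from -0.17 to -0.99 in BM and from -0.09 to -0.69 in SP, which lowers them.

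**Figure D2:**
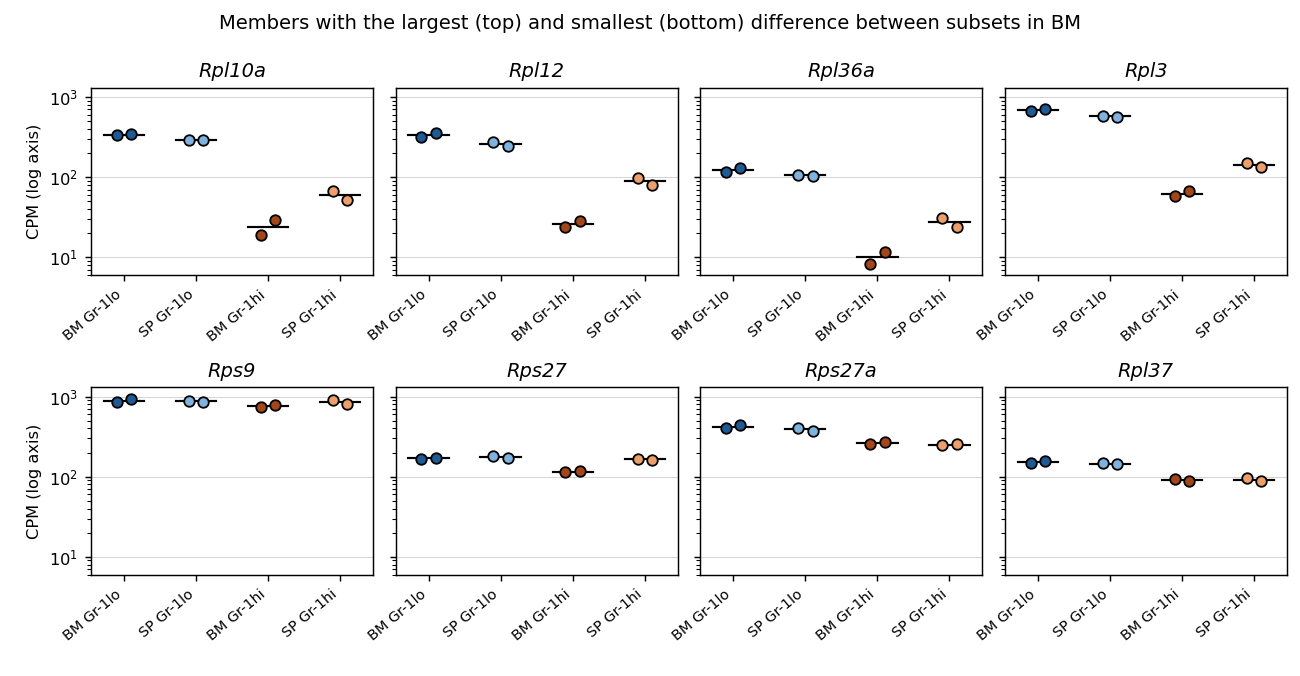
CPM (log axis) of the 4 members with the largest and the 4 with the smallest difference between subsets in BM, in all 8 libraries, with points for libraries and lines for group means. Rpl10a, Rpl12, Rpl36a and Rpl3 dropped in Gr-1hi cells and lay lowest in BM, whereas Rps9 stayed between 742 and 922 CPM in every library.

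In SP, the same contrast was called for 74 of 76 members, all lower (37.8% of all genes were called lower and 33.6% higher), and the exceptions were Rps9 and Rps27. For 75 members both Gr-1hi libraries lay below both Gr-1lo libraries, against 45.6% of all genes. The median log2 FC was -1.42 (quartiles -1.72 and -1.19), against -0.09 over all genes. No member passed the threshold of the study of an FC above 8. Rpl10a had the largest fall, from 288 and 294 CPM to 67.0 and 51.7 CPM (log2 FC -2.29 ± 0.20, adjusted p 1.5e-05). It was followed by Rps2, Rpsa and Rpl3 at -2.10, -2.08 and -2.04. Rpsa, also known as the laminin receptor, went from 1028 and 991 CPM to 261 and 215 CPM. The 74 calls held in each of 15 alternative settings, the one without libraries 5 and 7 included. Those that leave out only BM libraries keep all counts of this contrast and bear on it just through the shared fit and scaling.

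The order of the members was alike in both tissues, which were measured in separate libraries. Across the 76 members, the log2 FC in BM and that in SP had a Pearson correlation of 0.91 and a Spearman correlation of 0.92, given as a description, since genes are not replicates and each keeps its length and copies in both. In contrast, the log2 FC in BM had a Pearson correlation of -0.06 with exon length, -0.01 with the level per length in BM Gr-1lo and 0.02 with the number of pseudogene rows. Scaling shifts all genes of a comparison by about the same amount. With scaling by total count, the median of all genes was -0.99 in BM and -0.69 in SP, and that of members was -2.86 and -2.02. Relative to the median of all genes, that of the members was -1.87 in BM and -1.33 in SP.

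**Figure D3:**
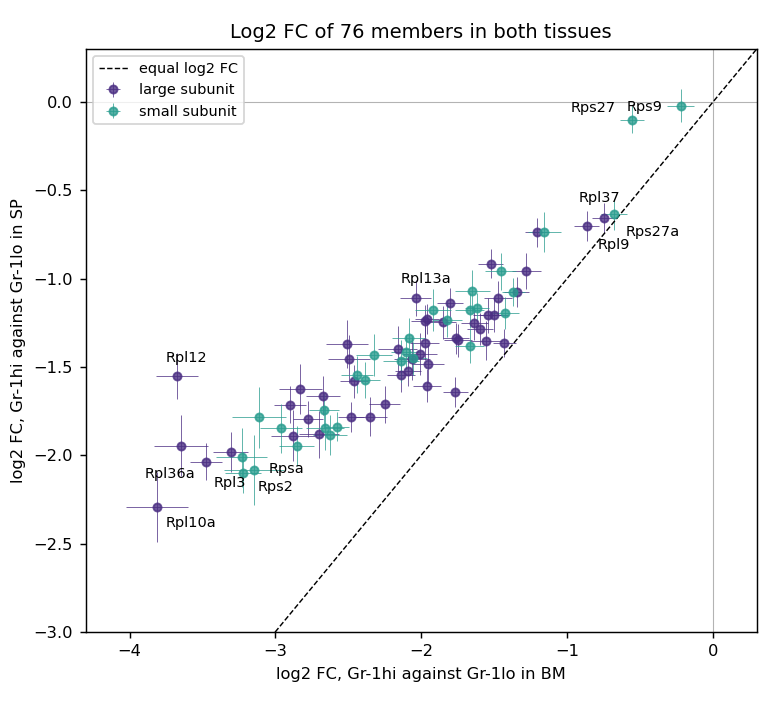
Log2 FC of Gr-1hi against Gr-1lo for the 76 members, in BM (horizontal) and SP (vertical), with whiskers for the SE and a dashed line of equal log2 FC. All points lie below 0 on both axes and above the dashed line, and Rps9 and Rps27 lie nearest to 0 in SP (-0.02 and -0.10).

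Members that are studied for roles beyond the core of the ribosome went with the rest. In BM, the acidic stalk proteins Rplp0, Rplp1 and Rplp2, which bind elongation factors, fell with log2 FCs of -2.35, -2.78 and -2.16. Rplp0 was at 1129 and 1208 CPM in BM Gr-1lo and at 212 and 247 CPM in BM Gr-1hi. Rpl5 and Rpl11, which join 5S rRNA and can bind MDM2, had log2 FCs of -2.67 and -2.01. Rps19 and Rps14, whose loss is linked to failure of erythroid precursors, had -2.96 and -1.37, which placed them on opposite sides of the members' median. Rps6, the substrate of S6 kinase, had -2.38, Rpl22, required for alpha-beta T cell development, had -2.90, and Rpl10, which joins late in assembly, had -2.09. Rpl38 and Rpl39, both small proteins, had -2.06 and -2.50. All of these passed the test in both tissues, and in SP they ranged from -1.85 (Rps19) to -1.08 (Rps14).

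**Figure D4:**
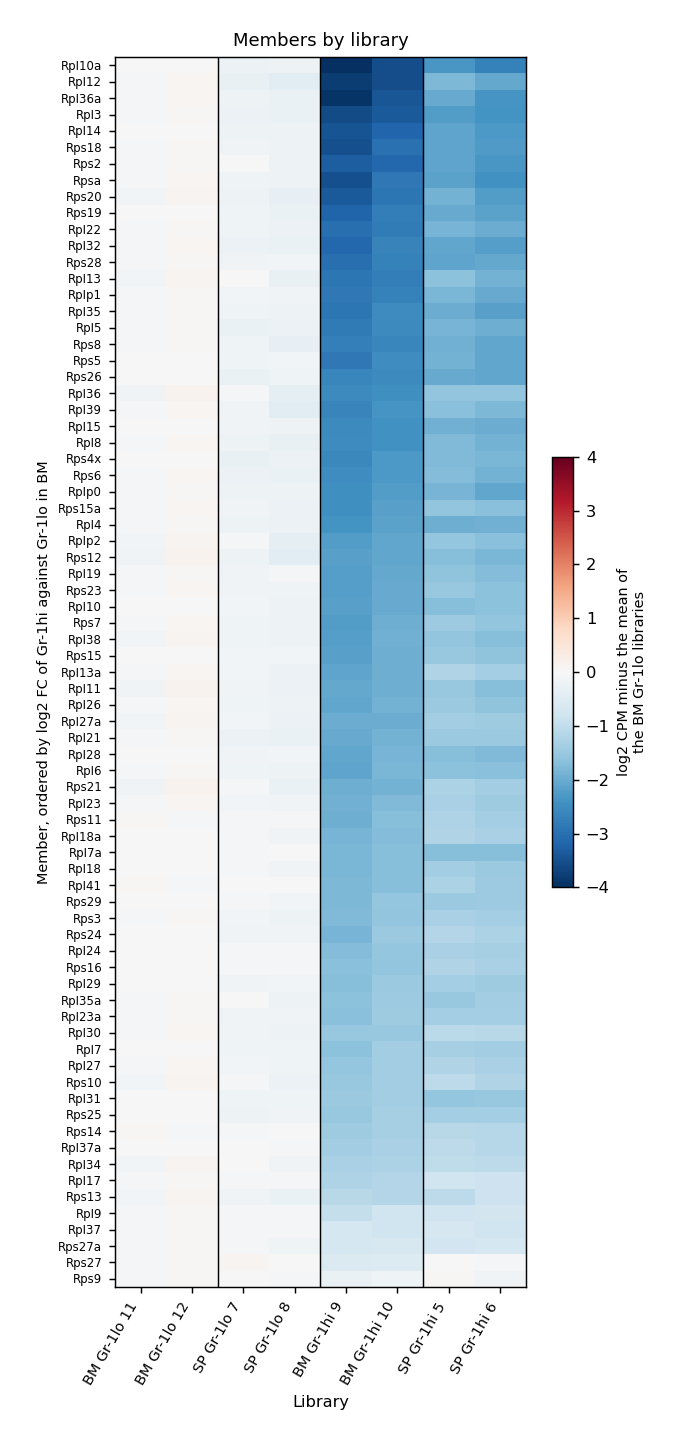
Log2 CPM of 75 of the 76 members (rows, ordered by log2 FC of Gr-1hi against Gr-1lo in BM) in each library (columns), minus its mean in the BM Gr-1lo libraries. The Gr-1hi columns are blue for most rows, more so in BM (libraries 9 and 10) than in SP (5 and 6), and pale for Rps9 and Rps27 at the foot.

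Between tissues, Gr-1hi cells of SP had higher levels of most members than Gr-1hi cells of BM. Of 76 members, 59 were called higher and 0 lower by edgeR's quasi-likelihood test, against 20.1% of all genes called higher and 13.9% called lower. For 70 members both SP libraries lay above both BM libraries, against 35.9% of all genes. The median log2 FC was 0.48 (quartiles 0.31 and 0.71), against 0.03 over all genes. An FC of at least 2, the threshold of the study, was passed by 9 members (14.0% of all genes passed it upwards). Of the large subunit 34 of 46 were called, with a median of 0.43, and of the small subunit 25 of 30, with a median of 0.52.

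Rpl12 had the largest increase, with 96.9 and 80.4 CPM in SP Gr-1hi and 24.1 and 28.6 CPM in BM Gr-1hi (log2 FC 1.75 ± 0.13, adjusted p 1.3e-04). Rpl36a was at 30.9 and 24.1 CPM against 8.26 and 11.6 CPM (log2 FC 1.47 ± 0.18). Rpl10a was at 67.0 and 51.7 CPM against 19.0 and 29.2 CPM (log2 FC 1.30 ± 0.20). Rpl3 rose as well, by a log2 FC of 1.18 ± 0.10, and the groups of these 4 did not overlap. Rplp1 and Rpl22 rose by log2 FCs of 0.87 and 0.99, Rps19 by 0.89 and Rpl5 by 0.76. Of the 14 genes listed by role, Rplp0 (0.38), Rplp2 (0.56), Rpsa, Rpl11 (0.39), Rps14 (0.25), Rpl10 (0.41) and Rpl38 (0.42) were also called higher. Each of the latter lost its call in at least 1 other setting. The lowest values belonged to Rpl31, a protein near the exit of the peptide tunnel, at 98.7 and 101 CPM in SP Gr-1hi and 104 and 111 CPM in BM Gr-1hi, which was not called (log2 FC -0.10 ± 0.08, adjusted p 0.33). Rps27a, Rpl37 and Rps25 were not called either, at -0.06, 0.02 and 0.06, and the signs of these 4 turned under at least 1 other setting, while Rps25 was called higher under total-count scaling (0.27, adjusted p 0.048).

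The size of the count rested in part on single libraries. Without library 9 (BM Gr-1hi) 36 members were called higher, and without libraries 5 and 7 the number was 40, where library 6 alone stands for SP Gr-1hi and is assumed to vary like the others. In all 15 alternatives 34 of the 59 were called. The replicates of BM Gr-1hi differed most, with a median absolute log2 difference between libraries of 0.17 over the members, against 0.05 in SP Gr-1lo.

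Markers of other cells moved with this comparison. The 10 B cell markers summed to 1201 and 836 CPM in SP Gr-1hi and to 90.1 and 128 CPM in BM Gr-1hi, and 10 of 10 were called higher. For plasma cells (7 markers, 6 tested) the sums were 1450 and 900 CPM against 268 and 248 CPM, with 6 of 6 called. The 10 T cell markers summed to 143 and 89.9 CPM against 12.5 and 8.75 CPM, with 9 of 10 called, and 7 erythroid genes to 218 and 734 CPM against 35.9 and 44.1 CPM, with 6 of 7 called. Cd3e, a T cell receptor component, was at 11.8 and 6.89 CPM in SP Gr-1hi and 0.449 and 0.372 CPM in BM Gr-1hi, and no list had its markers at 0 throughout, although Tnfrsf17, a plasma cell receptor, was at 0 in libraries 6, 9, 10 and 11. Their part in the difference of the members was not tested.

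**Figure D5:**
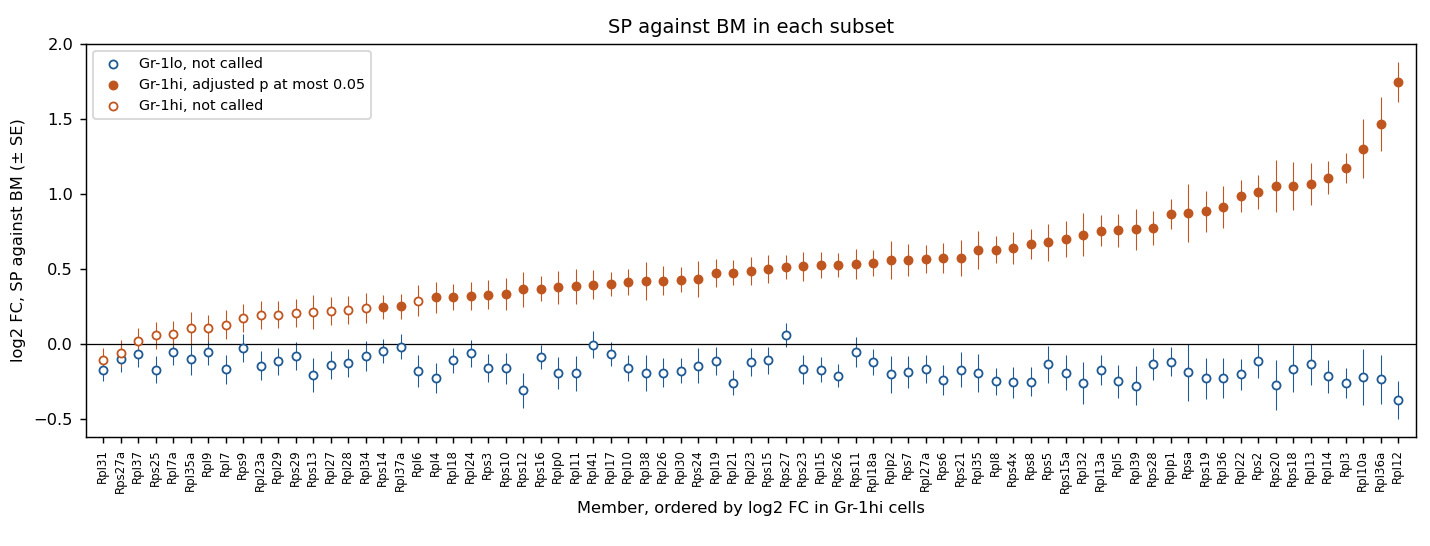
Log2 FC of SP against BM (vertical, with the SE) for 75 of the 76 members in Gr-1hi (orange) and Gr-1lo (blue) cells, ordered by the Gr-1hi value, with filled points for an adjusted p of at most 0.05. Values in Gr-1hi cells reached 1.75 (Rpl12) and most points are filled, whereas no Gr-1lo value was called and all lay between -0.37 and 0.06.

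In Gr-1lo cells the members differed little between SP and BM, but 75 of 76 had a negative log2 FC, against 9128 of 17650 genes tested. No member was called in either direction by edgeR's quasi-likelihood test, while 4.88% of all genes were called higher and 0.697% lower. At an unadjusted p of at most 0.05, 10 members (13.2%) were lower and 0 higher, against 8.32% and 11.8% of all genes. DESeq2 called 3 lower and 0 higher. The log2 FCs ran from -0.37 (Rpl12, 274 and 246 CPM in SP against 316 and 357 CPM in BM, adjusted p 0.15) to 0.06 (Rps27), with a median of -0.17 against -0.01 over all genes. For 59 of 76 members both SP libraries were below both BM libraries, as they were for 32.5% of all genes. Rps12 and Rpl39 were also among the lowest, at -0.31 and -0.28, and Rpl41, Rpl37a and Rps9 lay near 0 with signs that turned under other settings. The B cell markers were higher here too (sums of 1134 and 1849 CPM in SP against 353 and 741 CPM in BM, 8 of 10 called). Such sums weigh the most abundant markers and do not rank the subsets. Between subsets in BM, 6 of the 10 were called higher in Gr-1hi and 2 lower (median log2 FC 2.35), although the sums were larger in Gr-1lo.

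Whether the tissue difference itself differed between subsets was tested as an interaction, the difference in Gr-1hi minus that in Gr-1lo. It was called for 54 of 76 members, all higher, by edgeR's quasi-likelihood test, against 10.3% of all genes called higher and 6.08% called lower. The median was 0.61, against 0.03 over all genes, and 15 members reached an FC of 2 (7.74% of all genes did so upwards). Rpl12 led with 2.12 ± 0.18 (adjusted p 0.0015), followed by Rpl36a (1.70 ± 0.24), Rpl10a (1.52 ± 0.27) and Rpl3 (1.44 ± 0.14). Rps27a, Rpl31, Rpl37 and Rpl7a lay lowest, at 0.04 to 0.12, and were not called. Without libraries 5 and 7 Rpl10a was not called (adjusted p 0.086). Rps27 was called at 0.46, but not without a filter (adjusted p 0.062), without libraries 5 and 7 (0.51, adjusted p 0.090) or without any 1 of libraries 5 and 7 to 12 (adjusted p 0.070 to 0.13). Rps9 was not called, at 0.20 (adjusted p 0.34). The count was 34 without library 5, 31 without 7, 22 without 8, 27 without 9, 25 without 12 and 24 without both 5 and 7, and 20 of the 54 were called in all 14 alternatives.

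Levels can be compared between members only per length of transcript. In CPM per kilobase of all annotated exons, members spanned 43.6 (Rps15a) to 745 (Rplp1) in BM Gr-1lo with a median of 196, 38.2 to 687 in SP Gr-1lo, 6.01 (Rpl36a) to 302 (Rps9) in BM Gr-1hi, and 13.9 (Rpl22) to 341 (Rps9) in SP Gr-1hi. On the mean over all libraries, Rplp1, Rplp0, Rpl23a, Rps9 and Rpl19 were highest, and Rpl35a, Rps20, Rps19, Rpl22 and Rps15a lowest. The groups differed in this order, with Rplp1 in place 1 and Rps9 in place 15 in BM Gr-1lo, and Rps9 in place 1 and Rplp1 in place 10 in BM Gr-1hi. The order also depends on the length used. With the length of the principal coding transcript, an alternative chosen after seeing the data, and the same mean over libraries, Rps9 was highest and Rpl10 next, Rps19 moved from place 74 to 46 of 76, and 6 of the 10 highest and 6 of the 10 lowest members were shared with the first order (Spearman correlation 0.69). Rps15a and Rpl22 were at the foot by both. The lengths used for Rps15a were 6270 and 5130 bases, the longest of any member by either measure, and its place rests on them. Whether the cells used such long transcripts was not tested.

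Genes for the same machinery outside the symbol rule gave a similar split. Rps3a1 and Rack1, both of the small subunit, fell in BM Gr-1hi cells with log2 FCs of -2.08 and -2.94. The product of Fau holds a small subunit protein behind a ubiquitin-like domain. With TMM scaling, Fau was at 355 and 369 CPM in BM Gr-1lo and 361 and 351 CPM in BM Gr-1hi. Its log2 FC was -0.02 ± 0.08 (not called), a value near that of Rps9. Rps9 was called lower in BM under total-count scaling (-1.03), for which the value of Fau is not given. Of 13 related genes tested, 9 were lower and 1 higher in BM, the latter being Rpl3l at no more than 2.35 CPM, and 10 were lower and 1 higher in SP. Among these paralogs Rpl36al had the largest fall (-3.35 in BM).

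Other lists of the translation machinery moved less or more than the members. Of 22 genes for translation factors and other TOP mRNAs, 21 were lower and 1 (Eif4a2, 0.72) higher in BM Gr-1hi, with a median of -1.56, and Hnrnpa1 and Eif3e had the largest falls (-2.80 and -2.75). Of 35 ribosome biogenesis genes, 33 were lower in BM with a median of -3.55 and 29 were higher in SP than in BM Gr-1hi cells with a median of 1.32. Tsr1, an assembly factor of the small subunit, had a log2 FC of -4.83 in BM, whereas Polr1a, the largest subunit of RNA polymerase I, rose by 2.59. Of 78 mitochondrial ribosomal protein genes, 69 were lower and 2 higher in BM with a median of -1.52. In SP against BM Gr-1hi 15 were higher and 6 lower, against 20.1% and 13.9% of all genes, with a median of -0.03. Mrpl52 (-4.54) and Mrps6 (-4.24) had the largest falls and Mrpl33 (0.87) the largest increase. These medians are descriptions, and no test of one list against another was made.

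Among 21 regulators of ribosomal protein mRNAs, 9 were higher and 9 lower in BM Gr-1hi, against 34.5% and 41.2% of all genes. As a list they had no common direction. Myc, which drives ribosome production, was at 17.5 and 18.1 CPM in BM Gr-1lo, 1.38 and 1.11 in BM Gr-1hi, 8.80 and 6.98 in SP Gr-1lo, and 5.94 and 7.08 in SP Gr-1hi. It fell in BM (log2 FC -3.83 ± 0.20), was not called between the subsets in SP (-0.27 ± 0.17) and was higher in SP than in BM Gr-1hi cells (2.37 ± 0.21). Mxd1, a partner of MAX that opposes MYC, rose from 42.1 and 51.9 to 3155 and 3017 CPM in BM (log2 FC 6.04), and Max rose by 2.71. Larp1 fell in both tissues (-2.52 and -1.90), and so did Rptor, an mTOR complex component (-1.46 and -1.68). In SP against BM Gr-1hi 3 regulators were called higher and 5 lower, against 20.1% and 13.9% of all genes. Myc and Cnbp led upwards and Mlst8 and Max downwards.

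Cell cycle and granule genes separated the subsets in the same direction as the members. All 16 proliferation genes were lower in Gr-1hi cells of both tissues, with medians of -3.01 in BM and -2.74 in SP, and their summed level was 2574 to 3567 CPM in Gr-1lo and 430.2 to 659 CPM in Gr-1hi libraries. In SP against BM Gr-1hi, 5 were higher and 1 lower, against 20.1% and 13.9% of all genes, with a median of -0.11. The 5 primary granule genes of immature granulocytes summed to 3253 and 3289 CPM in BM Gr-1lo, 1200 and 2147 CPM in SP Gr-1lo, and at most 43.3 CPM in Gr-1hi libraries. Of 9 myeloid markers, 5 were higher and 3 lower in BM Gr-1hi, and 2 were higher and 3 lower in SP than in BM Gr-1hi. The part of cell cycle or maturation stage in the levels of the members was not tested.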

How the data were processed

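Poly(A) RNA of FACS-sorted cells was sequenced from 8 libraries made with a stranded mRNA kit. The authors deposited raw read counts per gene. Reads were checked with FastQC, filtered with Sickle, aligned to GRCm38 with STAR and counted with featureCounts, and the table is named as stranded. The treatment of reads with several hits is not given in the sources used here, and such reads bear on genes with many pseudogenes. The exons of 37 members overlap another gene, 27 on the same strand and 18 on the opposite strand. The TPM values, quantile normalization and tests that the study applied later are not in the deposited counts.

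Members and gene lists were chosen with earlier results of these data known. Counts were analysed in R 4.3.3 with edgeR 4.0.16 (filterByExpr, TMM factors, quasi-likelihood fit with robust dispersion over 4 groups with 4 residual degrees of freedom, two-sided), with Benjamini-Hochberg adjustment across the 17650 genes tested. A call is an adjusted p of at most 0.05, and log2 FCs carry their SE. CPM values were scaled by the TMM factors. Lengths came from a GENCODE annotation of the same build, but of another release than the study used, and were found for 53947 of 54188 genes. Depth was 33453580 to 68316154 counts, and for a gene at 0 the upper limit is 3 counts (counting error only). P-values rest on the spread between the 2 libraries of a group, pooled over the 4 groups and moderated across genes. Libraries outside a comparison therefore bear on its p-values. The fit was checked on simulated data.

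Named members were the 4 highest and 4 lowest log2 FCs per comparison, 14 genes listed by role (the stalk proteins, Rpsa, Rps6, Rpl5, Rpl11, Rpl22, Rps14, Rps19, Rpl10, Rpl38, Rpl39 and Rps27), and the 5 highest and 5 lowest levels per length. Rpl9, Rpl14, Rps18 and Rps20 were named after their values were seen. Single values of some genes are not reported here, although they are in the counts of genes and the medians. Alternatives were RLE, upper-quartile and total-count scaling, DESeq2 1.42.0, no filter beyond 1 count, fits of the 4 libraries compared, each library left out in turn, libraries 5 and 7 left out, and, for shares, added pseudogenes, a denominator without the top 10 genes, and TPM.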

Additional observations from a re-analysis of the deposited data

Results flagged for a closer look

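The tissue difference of the members depended on the subset. By the interaction term of edgeR's quasi-likelihood fit, 54 members had a higher log2 FC of SP against BM in Gr-1hi than in Gr-1lo cells, against 10.3% of all genes. The number was 22 without library 8 and 24 without libraries 5 and 7. The 4 members with the largest interaction log2 FC were Rpl12 (2.12), Rpl36a (1.70), Rpl10a (1.52) and Rpl3 (1.44), and both SP Gr-1hi libraries were above both BM Gr-1hi libraries in each. Rpl10a was not called without libraries 5 and 7.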

How the results depend on the processing

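In SP against BM Gr-1lo the median log2 FC of the members was -0.23 with RLE scaling and with DESeq2, -0.13 with upper-quartile scaling, -0.12 without a filter, -0.21 without libraries 5 and 7, and -0.22 to -0.10 when 1 library was left out, and DESeq2 called 3 members lower and the fit of 4 libraries 1. In SP against BM Gr-1hi 36 to 56 members were higher when 1 library was left out, and the median was 0.69 with total-count scaling and 0.36 to 0.48 when 1 library was left out. For Gr-1hi against Gr-1lo the median in BM was -1.90 with RLE scaling and with DESeq2, -2.86 with total-count scaling and -2.10 to -1.89 when 1 library was left out, and in SP -1.29 with RLE scaling and with DESeq2, -1.34 with upper-quartile scaling, -2.02 with total-count scaling, -1.55 without a filter and -1.50 to -1.37 when 1 library was left out. The interaction was called for 24 members without libraries 5 and 7 and for 22 to 54 when 1 library was left out, with a median of 0.82 under total-count scaling and 0.48 to 0.70 when 1 library was left out. Of the members named, those that turned in sign were not called in the comparison concerned. In SP against BM Gr-1lo, Rps9 was 0.012 with upper-quartile scaling, 0.019 without a filter and -0.078 to 0.029 when 1 library was left out, Rpl37a was 0.019, 0.027 and -0.054 to 0.018 and 0.0023 in the fit of 4 libraries, Rpl41 was 0.033, 0.043 and -0.040 to 0.036, 0.017 in the fit of 4 libraries and 0.0095 without libraries 5 and 7, and Rps14 was 9.4e-04 without a filter. In SP against BM Gr-1hi, Rpl31 was 0.10 with total-count scaling, Rps27a 0.016 with upper-quartile and 0.15 with total-count scaling, Rpl37 -0.051 with RLE scaling and DESeq2, -0.028 without libraries 5 and 7 and -0.12 to 0.023 when 1 library was left out, and Rps25 -0.013 with RLE scaling and DESeq2 and -0.098 to 0.079 when 1 library was left out. In Gr-1hi against Gr-1lo of SP, Rps27 was 0.034 with RLE scaling and DESeq2, and Rps9 was 0.11 with both, 0.062 with upper-quartile scaling and -0.12 to 0.054 when 1 library was left out. For the interaction, leaving out 1 library gave -0.083 to 0.11 for Rps27a, -0.057 to 0.079 for Rpl31, -0.073 to 0.12 for Rpl37 and -0.017 to 0.16 for Rpl7a. The cause of these changes was not tested. A group left with 1 library is assumed to vary like the others. No paired analysis was possible, because no replicate number is shared between groups and the labels do not tie libraries to mice. Any cells taken from the same mouse therefore enter as separate samples.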
